A study of Rattus norvegicus with 9 samples.

Results

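The genes of inhibitory signaling by GABA were examined in cultured rat cortical neurons that received alternating current stimulation (ACS), direct current stimulation (DCS) or no current (control). They are the subunits of the GABA-A and GABA-B receptors, the enzymes and transporters that make, pack, take up and break down GABA, the scaffold genes Gphn and Nlgn2, and genes that mark inhibitory interneurons. They were taken by name from the 32623 entries of the deposited table. Names of the form Gabr or Gabbr with a subunit letter or number were joined by 18 listed genes, which gave 39 entries, and the 33 with a mean count of at least 10 over the 9 libraries were kept. All 33 were among the 16284 genes that passed the filter of the test. The kept genes are 13 of 19 GABA-A subunits, both GABA-B subunits, 3 genes of synthesis and packaging, 2 of uptake and breakdown, 2 of the postsynaptic scaffold, 6 neuropeptides and calcium-binding proteins, and 5 transcription factors. Gabrq with a mean count of 8.33, Gabre with 8.0, Gabrr1 with 6.11, Gabrr3 with 5.11 and Gabra6 with 0.778 were below the minimum of 10. The lowest of the kept genes were Gabrd with 30.8, Gabrr2 with 37.9 and Pvalb with 45.1. Gabrp had no count in any of the 9 libraries. If each count is a single fragment, a count of 0 at these depths allows up to 0.0437 to 0.0612 CPM per library (3 counts, counting error only). The counts are estimates, and a fragment may add several, in which case this limit is too low.

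GABA is the main inhibitory transmitter of the mature cortex. It opens the chloride channel of the GABA-A receptor, which is built from alpha, beta and gamma or related subunits, and it acts more slowly through the GABA-B receptor, a G protein-coupled receptor that works as a pair of different subunits. Most cortical interneurons arise in the ventral forebrain under transcription factors of the Dlx family and Lhx6, and reach the cortex by migration. In rodents the subunit makeup shifts as neurons mature, with Gabra2, Gabra3 and Gabra5 prominent in the embryo.

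The neurons were wild-type cells from the cortex of Wistar rats of embryonic day 16 to 18, grown on conductive glass. ACS and DCS neurons received 3 µA in daily sessions of 20 min over 7 days. A frequency of 20 Hz stands in the labels of either current, but the methods of the study name it for ACS. All groups are labelled as day 7 in vitro, although the growth protocol names a later day. Each group had 3 libraries of polyadenylated RNA. It is not stated that they came from separate cultures, so p-values measure the spread between these samples. The estimated counts summed to 49039412 to 52938628 per ACS library, 52370330 to 68133858 per DCS library and 53910745 to 68690760 per control library, with the ACS libraries among the shallower, and log2 CPM correlated at 0.961 to 0.973 between any pair. Levels are given as FPKM where genes are compared with each other, since FPKM is per length, and as CPM (counts scaled to the library size by TMM) where groups are compared.

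The cell type in the labels was checked against marker lists. The neuronal genes were the most abundant, with Tubb3, a neuronal tubulin, at a mean of 1123 FPKM and a summed level of 10 pan-neuronal genes of 2348 to 2461 FPKM in ACS libraries, 2227 to 2415 in DCS libraries and 2194 to 2301 in control libraries. The 10 markers of excitatory cortical neurons summed to 385.6 to 394.9 FPKM in ACS, 366.1 to 401.6 in DCS and 375.5 to 381.0 in control libraries, and the 13 markers of GABAergic interneurons to 308.6 to 316.8, 298.6 to 325.2 and 272.6 to 312.5 FPKM. The cultures also held signal of other cells. The 9 astrocyte markers summed to 227.4 to 307.5 FPKM in ACS, 269.2 to 277.2 in DCS and 277.0 to 285.6 in control libraries, the 9 genes of the oligodendrocyte lineage to 189.0 to 206.2, 193.3 to 219.4 and 189.9 to 220.1 FPKM, and the 8 microglial genes to 50.6 to 54.2, 54.0 to 55.6 and 52.2 to 54.1 FPKM. The 12 genes of striatal projection neurons, which share Gad1, Gad2 and the Dlx genes with interneurons, summed to 91.7 to 99.0 FPKM in ACS, 94.2 to 98.3 in DCS and 86.8 to 94.4 in control libraries. Endothelial and fibroblast genes were near 0, with sums of 1.56 to 2.58 FPKM over all libraries. In such bulk RNA, fewer cells of a type and less RNA per cell cannot be told apart.

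The 33 genes spanned a wide range of levels. Gabbr1, a GABA-B subunit, had the highest mean, 98.8 FPKM over the 9 libraries. Other abundant genes were the neuropeptide gene Sst (somatostatin) at 84.0, Nlgn2 (neuroligin 2, an adhesion molecule of inhibitory synapses) at 73.3 and Dlx1 at 51.8 FPKM. The enzymes that make GABA from glutamate, Gad1 and Gad2, had 32.9 and 25.5 FPKM, and Slc32a1, the transporter that fills synaptic vesicles with GABA, had 23.0. Markers of interneuron classes differed in level. Sst was far above the calcium-binding protein Calb2 (calretinin) at 14.6 and Npy (neuropeptide Y) at 14.0 FPKM, and Calb1 (calbindin) at 4.21, Vip (vasoactive intestinal peptide) at 2.00 and Pvalb (parvalbumin) at 1.36 FPKM were low. Gabrd and Gabrr2 were at 0.290 and 0.221 FPKM. Over the 9 libraries the coefficient of variation of CPM ran between 3.09% for Gad1 and 45.3% for Gabrd among the 33 genes.

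**Figure D1:**
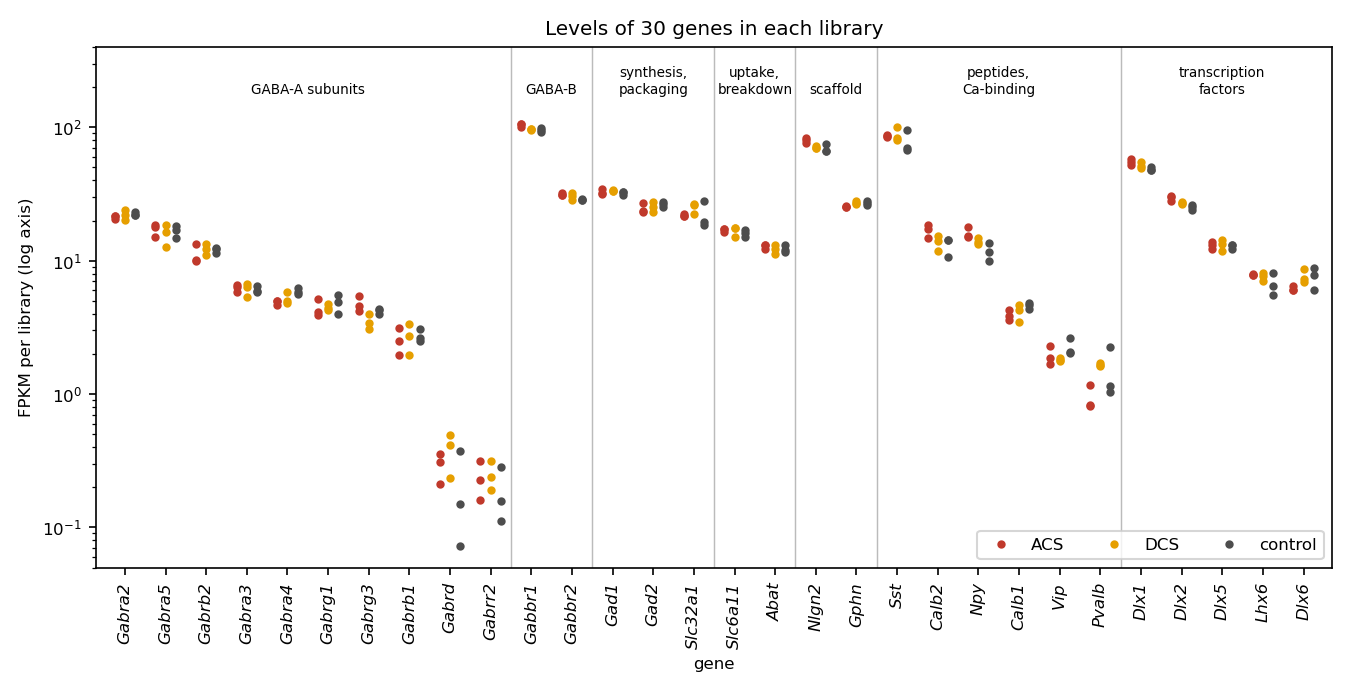
FPKM (log axis) of 30 of the genes in each of the 9 libraries, ordered by role and level, with ACS, DCS and control from left to right within a gene. By mean, the levels run from Gabbr1 with 92.5 to 105.7 FPKM down to Gabrr2 with 0.111 to 0.314 FPKM, and for most genes the groups overlap.

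Among the alpha subunits of the GABA-A receptor, Gabra2 held 40.5% of the class FPKM as a mean over the libraries and Gabra5 held 30.5%, while Gabra3 had 11.4% and Gabra4 9.83%. Gabrg3 had 12.9% ± 1.22 of the FPKM of the gamma and remaining subunits in ACS, 9.19% ± 1.19 in DCS and 10.4% ± 1.06 in control neurons (SD, n = 3 each). The summed FPKM of all 19 subunits was 160.9 ± 3.69 in ACS, 163.2 ± 3.41 in DCS and 170.1 ± 3.61 in control neurons (SD, n = 3 each). These shares were not tested.

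Under ACS, 1 of the 33 genes passed the test against control. This was Nlgn2, which rose, while 4.16% of the 16284 genes tested were called in this comparison at an adjusted p under 0.05 from edgeR's quasi-likelihood test (2.83% higher, 1.33% lower). At an unadjusted p under 0.05 there were 10 of the 33 (30.3%), against 20.8% of all genes, with Nlgn2, Dlx1, Dlx2, Gabbr1, Gabbr2, Npy and Calb2 higher (10.8% of all genes) and 3 lower, among them Gabra4 (10% of all genes). The 3 libraries of a group did not overlap those of the other for 12 of the 33 (9 higher, 3 lower), against 27.1% of all genes (14.0% higher, 13% lower). The differences were small. The median absolute log2 fold change was 0.18 over the 33 genes and 0.15 over all genes, and the 95% interval of the fold change stayed within 2-fold in either direction for 30 of 33 and within 1.5-fold for 25. Only Pvalb, Gabrd and Gabrr2, which are at low counts, had intervals reaching beyond 2-fold.

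**Figure D2:**
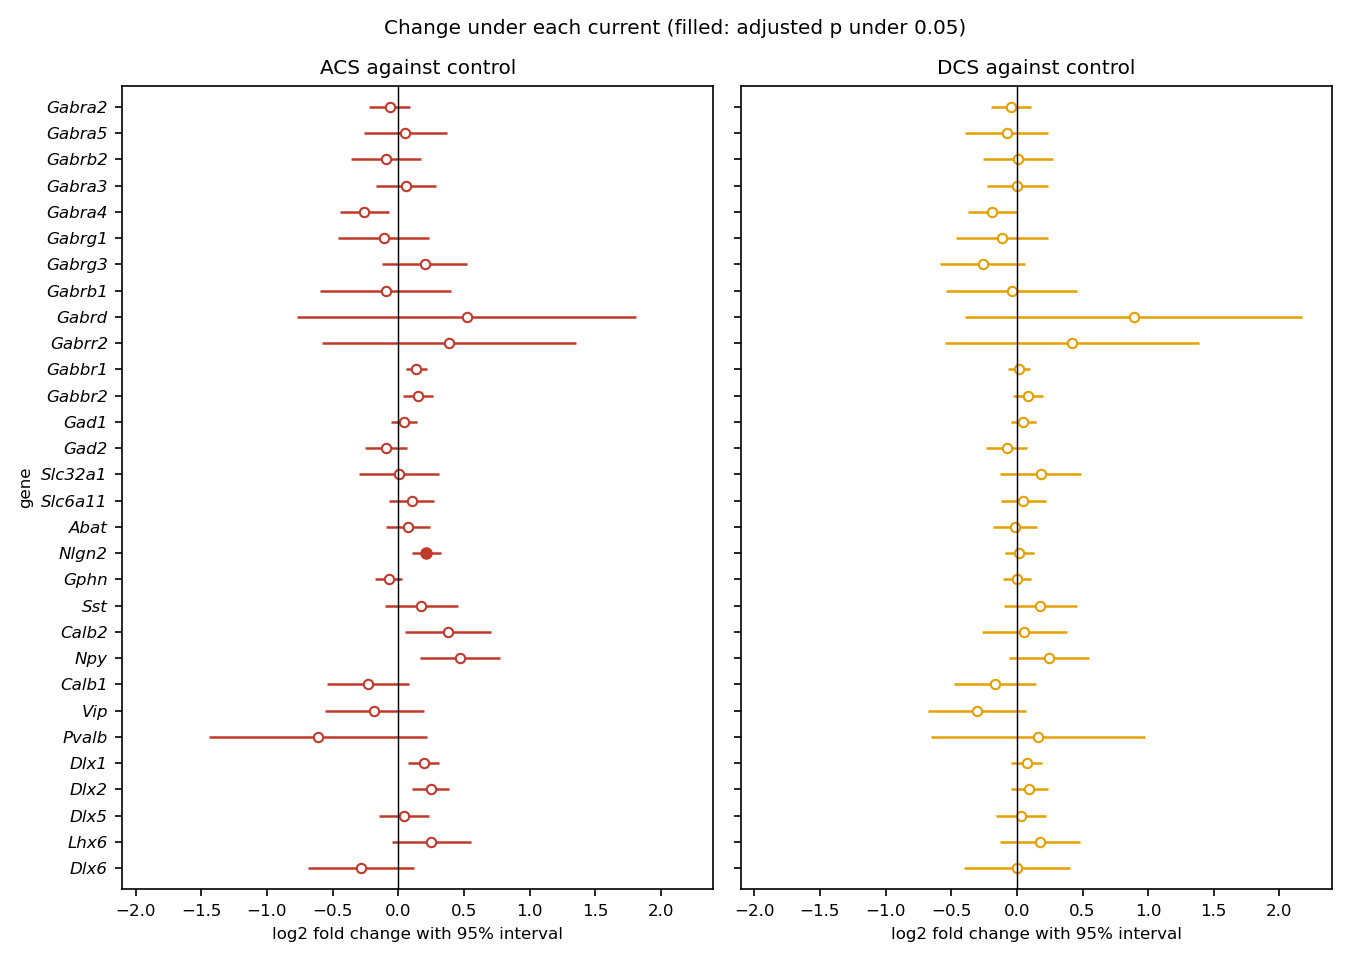
Log2 fold change with its 95% interval for 30 of the genes, in ACS against control (left) and DCS against control (right), with a filled point where the adjusted p was under 0.05. Nlgn2 under ACS, at 0.22, is the single filled point, and Gabrd, Gabrr2 and Pvalb have the widest intervals.

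Nlgn2 (ENSRNOG00000015430), which lies at 56431573 to 56444847 on the minus strand of chromosome 10 in the table's own coordinates, binds presynaptic neurexins and recruits the scaffold of inhibitory synapses. It had 365, 374 and 349 CPM in the ACS libraries, against 302, 302 and 333 CPM in the control libraries. All 3 ACS libraries were above all 3 control libraries, with 1 control library close to the lowest ACS library. The mean was 362.7 ± 12.8 CPM in ACS and 312.4 ± 18.1 CPM in control neurons (SD, n = 3 each), with a log2 fold change at 0.22 (SE 0.05, adjusted p = 0.0414) or 16.1% more. This call was close to the threshold. It was lost in 7 of 9 fits that left out 1 library, at adjusted p = 0.13 without ACS 1, 0.147 without ACS 2, 0.059 without ACS 3, 0.0605 without DCS 1, 0.0687 without DCS 2, 0.145 without control 1 and 0.159 without control 2, while DESeq2 gave 0.000934. DESeq2 called 5 of the 33 and 10.1% of all genes. Gphn encodes gephyrin, the protein lattice under inhibitory receptors to which neuroligin 2 binds, and had 81.3 ± 1.00 CPM in ACS and 85.6 ± 3.61 CPM in control neurons (SD, n = 3 each), with a log2 fold change at -0.07 with an interval of -0.18 to 0.03. The 2 scaffold genes thus had values on opposite sides of 0, and Gphn did not pass the test.

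The RefSeq sequence of the 250 bases before the start of 4 genes is shown, with coordinates in the GRCr8 assembly. Nlgn2 is the gene that passed the test, Gabbr1 and Gabbr2 encode the paired subunits described next, and Gad1 is the most abundant synthesis gene, whose level did not pass the test in any comparison. Capitals mark an exact match to a short motif, read on either strand, which is CGTCA, the reverse complement of the short cAMP response element TGACG, in Gabbr2 and the E-box CANNTG in Gad1. Nlgn2 and Gabbr1 hold no match to the motifs searched.
Nlgn2 (chr10:55056579-55056828, strand -): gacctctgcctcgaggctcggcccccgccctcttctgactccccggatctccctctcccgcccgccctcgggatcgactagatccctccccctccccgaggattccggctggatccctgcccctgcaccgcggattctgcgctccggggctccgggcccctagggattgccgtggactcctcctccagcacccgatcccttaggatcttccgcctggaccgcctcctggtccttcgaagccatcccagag
Gabbr1 (chr20:1499237-1499486, strand -): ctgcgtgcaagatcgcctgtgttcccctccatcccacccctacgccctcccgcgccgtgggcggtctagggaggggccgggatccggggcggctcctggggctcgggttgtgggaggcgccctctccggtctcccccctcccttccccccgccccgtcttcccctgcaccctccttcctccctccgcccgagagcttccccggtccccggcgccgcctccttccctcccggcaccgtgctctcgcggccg
Gabbr2 (chr5:66083696-66083945, strand -): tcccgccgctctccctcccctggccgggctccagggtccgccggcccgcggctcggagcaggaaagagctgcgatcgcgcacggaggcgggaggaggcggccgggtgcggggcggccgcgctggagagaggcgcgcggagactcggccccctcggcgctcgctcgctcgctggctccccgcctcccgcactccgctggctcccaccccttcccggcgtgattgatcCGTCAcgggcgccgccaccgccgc
Gad1 (chr3:75777202-75777451, strand +): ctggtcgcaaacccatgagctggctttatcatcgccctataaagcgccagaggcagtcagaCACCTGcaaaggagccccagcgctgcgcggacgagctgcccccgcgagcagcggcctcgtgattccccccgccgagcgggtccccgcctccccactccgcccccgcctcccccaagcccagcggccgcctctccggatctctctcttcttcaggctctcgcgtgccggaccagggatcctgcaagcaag

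Among 23 of the 33 genes with a promoter in the RefSeq table, these windows were rich in G and C, with a median of 69.2% against 51.2% over all 33469 promoters. The full cAMP response element TGACGTCA, in which the short form is contained, was in none of the 23 and in 1.59% of all promoters of the same length. The short form TGACG was in 4 of 23 (Gabbr2, Pvalb, Slc32a1 and Vip) and in 18.2% of all, the AP-1 motif TGANTCA in none and in 6.34%, the homeodomain core TAATTA in 1 (Sst) and in 4.86%, and the E-box CANNTG in 7 of 23 and in 65.5% of all. Both strands were searched.

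Both GABA-B subunits had higher values in all ACS libraries than in any control library, without passing the test. Gabbr1, the subunit that binds GABA, had 749, 710 and 738 CPM in ACS, against 649, 663 and 684 CPM in control neurons. Its log2 fold change was 0.14 (SE 0.04, adjusted p = 0.0644), or 10.1%. Gabbr2, the subunit that couples to the G protein, had 178, 185 and 177 CPM in ACS, against 166, 161 and 159 CPM in control neurons. Its log2 fold change was 0.15 (SE 0.05, adjusted p = 0.129), or 11.1%. The ratio of Gabbr1 to Gabbr2 in FPKM was 3.31 ± 0.163 in ACS, 3.20 ± 0.235 in DCS and 3.34 ± 0.157 in control neurons (SD, n = 3 each). Without control 3 Gabbr1 was called, at an adjusted p of 0.027, and with DESeq2 at 0.00801.

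No GABA-A subunit passed the test under ACS, 3 of 13 (23.1%) were at an unadjusted p under 0.05, against 20.8% of all genes, and DESeq2 called none. Of 13, 8 had a log2 fold change below 0 and 5 above, with a median of -0.07. Gabra4, found in extrasynaptic receptors with Gabrd, had 23.3, 21.3 and 22.9 CPM in ACS, against 26.6, 25.8 and 28.4 CPM in control neurons. These groups did not overlap, and the log2 fold change was -0.26 (SE 0.08, adjusted p = 0.114).

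Gabrg3, a gamma subunit at a low level, had 7.27, 7.78 and 9.32 CPM in ACS, 6.78, 5.79 and 5.16 CPM in DCS, and 6.77, 7.19 and 7.26 CPM in control neurons. Its ACS libraries were above all other libraries, by a narrow gap to the highest control library, and its log2 fold change in ACS against control was 0.20 (SE 0.15, adjusted p = 0.472). Among the other subunits, the log2 fold changes of Gabrd at 0.52 and Gabrr2 at 0.39 had intervals of -0.77 to 1.81 and -0.58 to 1.36, so a 2-fold increase of either gene was within the error at these counts. Gabra5 and Gabrg3 lie within the span of the entry Luzp2, which had a mean count of 435.1 and so was near the 400.8 of Gabrg3. The use of strand in the counting is not stated, so reads in shared stretches of Gabra5 or Gabrg3 and Luzp2 may not be told apart.

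The 5 genes that make, pack and clear GABA did not pass the test under ACS, and none was at an unadjusted p under 0.05 or called by DESeq2. Gad1 had 129, 130 and 140 CPM in ACS, 134, 134 and 133 CPM in DCS, and 131, 126 and 130 CPM in control neurons. The ACS and control libraries overlapped, and the log2 fold change of 0.04 had an interval of -0.05 to 0.14, which is among the narrowest of the 33. Gad2 averaged 143.1 ± 12.2 CPM in ACS and 152.9 ± 5.34 CPM in control neurons, and Slc32a1 54.5 ± 1.14 CPM in ACS and 54.3 ± 12.5 CPM in control neurons (SD, n = 3 each). For Slc32a1 the control libraries spread from 46.0 to 68.6 CPM, which covers all ACS values. The ratio of Gad1 to Gad2 in FPKM was 1.34 ± 0.0496 in ACS, 1.33 ± 0.105 in DCS and 1.21 ± 0.0222 in control neurons (SD, n = 3 each), and was not tested. Slc6a11, a GABA transporter found mostly on astrocytes, had 33.6, 34.9 and 34.9 CPM in ACS, against 30.5, 32.3 and 33.5 CPM in control neurons. The ACS libraries lay just above the highest control library, with a log2 fold change of 0.10 (interval -0.07 to 0.28). Abat, the transaminase that breaks down GABA, had a log2 fold change of 0.07 (interval -0.10 to 0.24).

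Of the 5 transcription factors, Dlx1 and Dlx2 had higher values in all ACS libraries, and none passed the test. They are homeobox genes of interneuron development. Dlx1 had 159, 150 and 167 CPM in ACS, against 136, 145 and 136 CPM in control neurons. The log2 fold change was 0.19 (SE 0.05, adjusted p = 0.0705), and DESeq2 gave an adjusted p of 0.013. Dlx2 had 32.2, 29.3 and 31.0 CPM in ACS, against 24.7, 26.2 and 27.0 CPM in control neurons. The log2 fold change was 0.25 (SE 0.06, adjusted p = 0.0571), or 18.7%. Dlx2 passed at 0.0471 when genes with a mean FPKM under 1 were left out, at 0.049 with counts divided by 4, at 0.0186 with DESeq2 and at 0.0406 without control 3. It also passed with limma on log2(FPKM + 0.1) (0.0484) and on log2(FPKM + 1) (0.048). The neighbouring pair Dlx5 and Dlx6 had intervals that include 0. Dlx5 had a log2 fold change of 0.05 (interval -0.15 to 0.24) and Dlx6 of -0.28 (interval -0.69 to 0.12). Dlx6 had a mean count of 225.9 and overlaps an entry on the opposite strand with a mean count of 6639, so its count may hold reads of that entry. Lhx6, which specifies the interneurons that later express Sst or Pvalb, had 9.65, 9.66 and 9.79 CPM in ACS, against 6.81, 7.92 and 9.69 CPM in control neurons, and the top control library lay within the ACS range.

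Among the neuropeptides and calcium-binding proteins, Npy and Calb2 had the largest positive fold changes under ACS, and none of the 6 passed the test. Npy had 10.8, 9.19 and 9.07 CPM in ACS, against 7.01, 5.96 and 8.03 CPM in control neurons. All ACS libraries were above all control libraries, and the log2 fold change was 0.47 (SE 0.14, adjusted p = 0.0879), or 38.3%. Leaving out control 3 moved it past the threshold (0.58, adjusted p = 0.0387), as did DESeq2 (adjusted p = 0.0249). Calb2 had 29.1, 26.9 and 23.2 CPM in ACS, against 22.3, 22.3 and 16.3 CPM in control neurons. The lowest ACS library was just above the highest control library, and the log2 fold change was 0.38 (SE 0.15, adjusted p = 0.173). Without control 3, the lowest control library, it was 0.24 (adjusted p = 0.284). Sst, the most abundant of them, had 55.5, 56.3 and 54.5 CPM in ACS, against 43.2, 44.3 and 59.5 CPM in control neurons. The groups overlapped, with control 3 the highest of the 6. Pvalb, which marks fast-spiking interneurons that mature late, averaged 0.540 ± 0.116 CPM in ACS, 0.925 ± 0.0236 CPM in DCS and 0.825 ± 0.377 CPM in control neurons (SD, n = 3 each). Its log2 fold change of -0.61 under ACS had an interval of -1.44 to 0.22. Vip and Calb1 had log2 fold changes of -0.18 and -0.23, with intervals of -0.56 to 0.19 and -0.54 to 0.08.

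**Figure D3:**
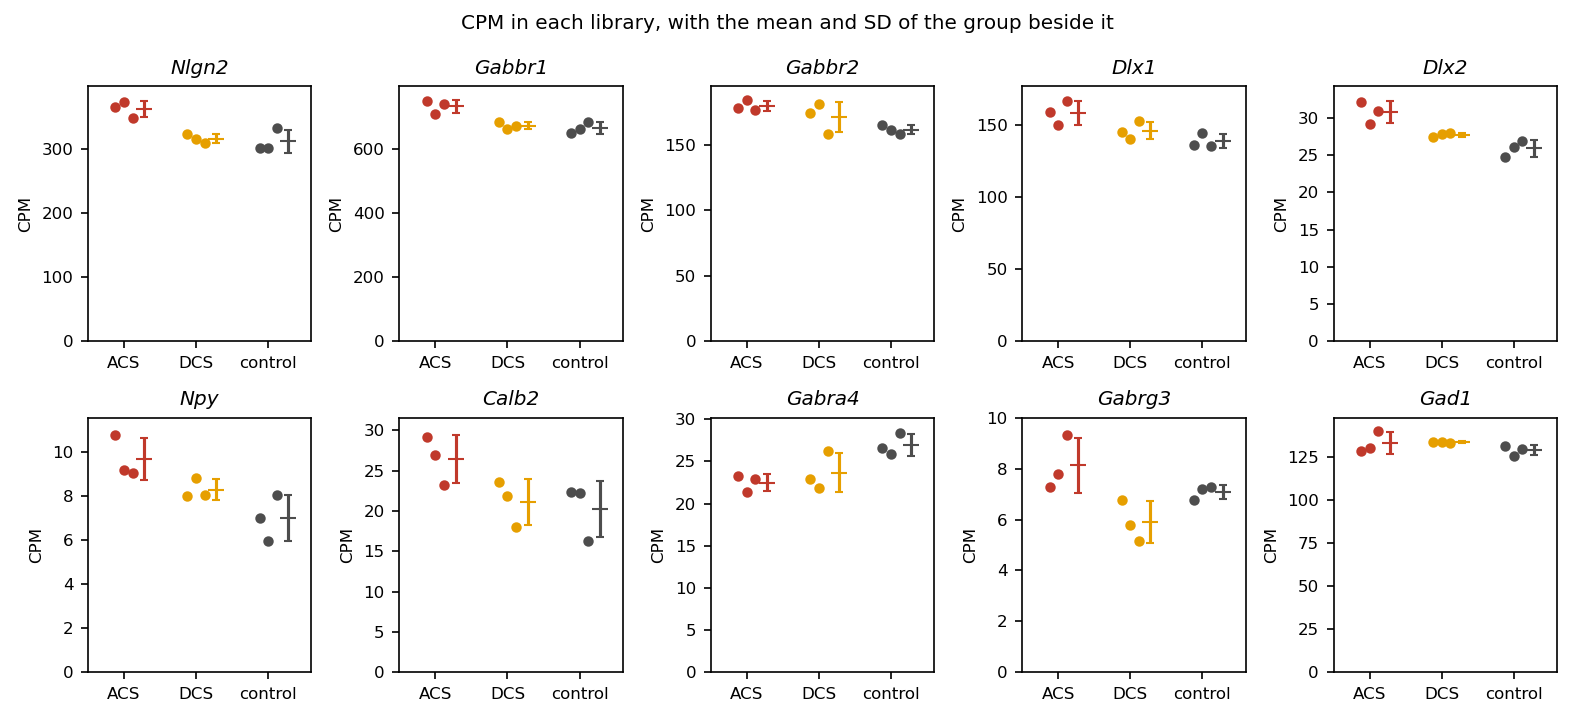
CPM of 10 genes in each library (points) with the mean and SD of each group beside them, ACS, DCS and control from left to right, on axes that start at 0. Nlgn2, both GABA-B subunits, Dlx1, Dlx2, Npy, Calb2 and, by a narrow gap, Gabrg3 lie higher in ACS than in control libraries without overlap. Gabra4 lies lower without overlap, and Gad1 overlaps.

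Under DCS, none of the 33 genes passed the test against control, while 0.0123% of all genes tested did (2 of 16284). At an unadjusted p under 0.05 there was 1 of 33, Gabra4, against 7.09% of all genes (3.05% lower), and DESeq2 called none of the 33 and 0.233% of all genes. The groups did not overlap for 3 of 33 (Vip lower, Gad1 and Dlx2 higher), against 11.1% of all genes (5.59% higher, 5.51% lower). The median absolute log2 fold change was 0.08 over the 33 genes and 0.10 over all genes. Gabra4 had 22.9, 21.8 and 26.3 CPM in DCS, against 26.6, 25.8 and 28.4 CPM in control neurons. The highest DCS library lay between control libraries, and the log2 fold change was -0.19 (SE 0.08, adjusted p = 0.695). Nlgn2 had 324, 315 and 310 CPM in DCS, which overlapped the control libraries, with a log2 fold change of 0.02 and an interval of -0.09 to 0.13. The interval stayed within 2-fold for 31 of 33, all but Gabrd and Gabrr2, and within 1.5-fold for 29. Both comparisons use the same 3 control libraries, so their values for a gene are not independent.

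Between the currents, none of the 33 genes passed the test, while 0.633% of all genes tested did. At an unadjusted p under 0.05 there were 6 of 33, against 13.9% of all genes, with Nlgn2, Gabbr1, Gabrg3, Dlx1 and Dlx2 higher in ACS (7.22% of all genes) and 1 gene lower (6.66%). The groups did not overlap for 9 of 33 (5 higher, 4 lower), against 21.4% of all genes (11.2% higher, 10.2% lower). DESeq2 called 2 of the 33 and 3.99% of all genes. Nlgn2 was higher in the 3 ACS libraries than in the 3 DCS libraries listed above, with 362.7 ± 12.8 CPM in ACS and 316.3 ± 7.21 CPM in DCS neurons (SD, n = 3 each). The log2 fold change was 0.20 (SE 0.05, adjusted p = 0.107), and it passed with DESeq2 (0.00588) and without control 3 (0.0418). Gabbr1 averaged 732.4 ± 20.5 CPM in ACS and 672.1 ± 11.1 CPM in DCS neurons (SD, n = 3 each), with a log2 fold change at 0.12 (adjusted p = 0.168), and passed with DESeq2 (0.0371). Gabrg3 had the largest difference of the 6, a log2 fold change of 0.46 (SE 0.15, adjusted p = 0.195). The interval stayed within 2-fold for 31 of 33, all but Pvalb and Gabrd, and within 1.5-fold for 27.

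Some of these genes lie side by side in the genome, which the choice of genes did not use. By the positions in the table, which names no build, Gabrb1, Gabra4, Gabra2 and Gabrg1 lie within 1406.0 kb of chromosome 14. Dlx1 and Dlx2 lie within 17.0 kb of chromosome 3, and Dlx5 and Dlx6 within 18.4 kb of chromosome 4. In ACS against control the 4 genes of chromosome 14, in the order above, had log2 fold changes of -0.10, -0.26, -0.07 and -0.11, all below 0. So were 8 of all 13 kept GABA-A subunits and 8231 of the 16284 genes tested, and other clusters of subunit genes are not given here. In DCS against control, which uses the same control libraries, the 4 genes of chromosome 14 had -0.04, -0.19, -0.04 and -0.11. There 9 of the 13 kept GABA-A subunits and 7997 of the 16284 genes tested were below 0. None of the 4 genes passed the test in either comparison, and the cluster was not tested as a group.

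Other genes of inhibitory synapses were counted in lists. Of 23 tested genes of the inhibitory scaffold and receptor trafficking, 2 rose under ACS and none fell, while 2.83% of all genes rose. Shisa7, which in mouse binds GABA-A receptors and aids their trafficking, averaged 207.3 ± 4.37 CPM in ACS and 172.1 ± 6.51 CPM in control neurons (SD, n = 3 each), with a log2 fold change at 0.27 (SE 0.05, adjusted p = 0.0185). Iqsec3, a partner of gephyrin, averaged 81.0 ± 6.25 CPM in ACS and 65.1 ± 4.11 CPM in control neurons (SD, n = 3 each), with a log2 fold change at 0.32 (SE 0.07, adjusted p = 0.0362). The median of this list was -0.01, and its most abundant gene was Gabarap at 193.3 FPKM. Leaving out ACS 1, ACS 2, control 1 or control 2 ended the call of Shisa7 (adjusted p up to 0.0916), and the same libraries, DCS 1 or DCS 2 ended that of Iqsec3 (up to 0.136). Under the 9 other settings Shisa7 was called in all and Iqsec3 in 5.

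Of 16 interneuron lineage transcription factors, 1 rose, while 2.83% of all genes rose. At an unadjusted p under 0.05 there were 8 of 16 (7 higher, 1 lower), against 20.8% of all genes. Of these 16, 13 had a log2 fold change above 0, with a median of 0.14 against 0.00 over all genes, and the most abundant was Meis2 at 109.8 FPKM. Of 20 genes of interneuron subtypes, 1 rose, against the same 2.83% of all genes, and it was also the single one at an unadjusted p under 0.05 (5.0%, against 20.8% of all genes). Grik1, a kainate receptor subunit found in interneurons, averaged 9.52 ± 0.383 CPM in ACS, 5.66 ± 0.353 CPM in DCS and 6.28 ± 0.814 CPM in control neurons (SD, n = 3 each). The log2 fold change was 0.60 in ACS against control (adjusted p = 0.0355) and 0.75 in ACS against DCS (adjusted p = 0.0422). Each of these calls remained in 2 of 9 fits without 1 library, those without DCS 3 or control 3 and those without control 1 or control 3, and the highest adjusted p were 0.126 and 0.162. Under the 9 other settings they remained in 6 and 5. The most abundant gene of the list was Cnr1 at 77.3 FPKM.

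No gene passed in the lists of GABA uptake, breakdown and glutamine supply (9 tested), GABA-B partners and effectors (8), neuronal chloride transport (7) and glycine receptors and transport (4) in any comparison. Their most abundant genes were Glul, glutamine synthetase, at 135.1, Gnao1, a G protein subunit, at 225.3, Clcn3, a chloride transporter, at 29.5, and Glra2, a glycine receptor subunit, at 18.3 FPKM. At an unadjusted p under 0.05 these lists held 2, 1, 1 and 0 genes in ACS against control, against 20.8% of all genes. DESeq2 called 1 gene of these lists, against 10.1% of all genes. It was Slc12a5, which exports chloride from neurons (log2 fold change 0.52 and adjusted p = 0.0798 with edgeR). In the table's own annotation, 57 tested genes of the GABAergic synapse pathway are not among the 33, and 3 of them rose under ACS and none fell, against 2.83% and 1.33% of all genes. DESeq2 called 10 of the 57, against 10.1% of all genes. Among the 3 were the calcium channel genes Cacna1d, which differed by 0.43 on the log2 scale (adjusted p = 0.0109), and Cacna1a, at 0.35 (adjusted p = 0.0485). Cacna1d was lost without control 1 (adjusted p = 0.0532), while Cacna1a remained in 2 of 9 fits that left out 1 library and under 5 of 9 other settings. Cacna1d also passed in ACS against DCS, at 0.42 (adjusted p = 0.0345), and remained there in 3 of 9 such fits and under 5 of 9 other settings. No list held a called gene in DCS against control, with edgeR or with DESeq2.

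Some markers of other cells moved in the same ACS libraries. Of 8 genes of progenitors and dividing cells, 3 fell under ACS, while 1.33% of all genes fell. Hes5, a Notch target of neural progenitors, fell to 1.03 ± 0.199 CPM in ACS, against 2.99 ± 0.518 CPM in control neurons (SD, n = 3 each), with a log2 fold change at -1.54 (adjusted p = 0.00612). Vim, an intermediate filament gene of progenitors and glia, fell by 0.19 on the log2 scale (adjusted p = 0.0461) and Mki67, a gene of dividing cells, by 0.22 (adjusted p = 0.0449). The 8 genes together summed to 249.4 to 267.2 FPKM in ACS, 280.5 to 305.0 in DCS and 285.8 to 298.0 in control libraries, so that the ACS libraries were below all others. Among neuronal genes, Rbfox3, the antigen NeuN, was 0.43 higher on the log2 scale (adjusted p = 0.0081) and Emx1, a gene of the excitatory lineage, 0.41 higher (adjusted p = 0.0163). These were the single called genes among 10 each, while 2.83% of all genes rose. Gfap of the astrocytes (1 of 8) and C1qa of the microglia (1 of 8) rose by 0.25 (adjusted p = 0.0281) and 0.76 (adjusted p = 0.0252), against the same 2.83%. Of the 8 astrocyte genes 5 had a log2 fold change above 0 and 3 below, and of the 8 microglial genes 4 and 4. No gene of the striatal (12), oligodendrocyte (9) or endothelial and fibroblast (5) lists passed with edgeR, while DESeq2 called 1, Pdgfrb. Abundant genes of these lists were Pde10a at 31.7 FPKM among striatal, Slc1a3 at 111.4 among astrocyte, Olig1 at 83.4 among oligodendrocyte, Csf1r at 18.7 among microglial, Pdgfrb at 0.808 among endothelial and fibroblast, and Vim at 158.9 FPKM among progenitor genes. In ACS against control, Hes5 and Rbfox3 were called in all 9 fits that left out 1 library, while Vim and Mki67 remained in 2 of 9 (adjusted p up to 0.173 and 0.154), and Emx1, Gfap and C1qa in 5. Under the 9 other settings Vim and Mki67 were called in 5 and Gfap in 7, and Hes5, Rbfox3, Emx1 and C1qa in all. Hes5 and Rbfox3 also passed in ACS against DCS, at -1.47 (adjusted p = 0.0208) and 0.35 (adjusted p = 0.0486). There Hes5 remained in 5 of 9 fits that left out 1 library and under 8 of 9 other settings, and Rbfox3 in 1 and 4. The part of these shifts in the values of Nlgn2 and the other genes above was not tested.

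Whether the genes that inhibitory neurons share vary together was examined over the 9 libraries. The log2 CPM of Gad1 was correlated with that of 13 other interneuron genes. Pearson's r ran between -0.42 for Dlx5 and 0.44 for Dlx1, and none of the 13 passed at an adjusted p under 0.05, with the smallest adjusted permutation p at 0.561 for r and 0.806 for Spearman's rho. With Gad2, which is used by the same cells, r was 0.29 (permutation p = 0.475) and rho 0.17 (permutation p = 0.676). Without ACS 3 and control 2, the libraries farthest from the median of Gad1, r with Gad2 was 0.05, and after each group was centred on its mean it was 0.70. The range of Gad1 between libraries was small, at 126 to 140 CPM, which limits what such a correlation can show.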

How the data were processed

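RNA of 9 libraries, 3 each of ACS, DCS and control neurons, was analysed in groups given by the labels. The authors trimmed the reads (cutadapt 1.9 in their processing notes, fastp in the paper), aligned them with HISAT2 (2.0.4) and quantified them with StringTie (1.3.4d). UMI-tools, DESeq2 and edgeR are also named in those notes. The deposited FPKM values, with zeros written as 0.0001, and the deposited estimated counts, which are whole numbers, come from this step by the authors. No build is named in the table, and all columns of values were mapped.

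After TMM scaling, filterByExpr (minimum count 10, minimum total 15) removed 16339 genes and kept 16284. The quasi-likelihood test of edgeR 4.0.16 (an F test, R 4.3.3) was fitted on all 9 libraries and gave ACS against control, DCS against control and ACS against DCS (common biological coefficient of variation 0.218, 6 residual degrees of freedom, prior 3.83), with Benjamini-Hochberg adjustment over the genes tested. A call is an adjusted p under 0.05. Intervals are 95% and come from the same fit, and a standard error is the absolute log2 fold change over the square root of F. The script was tested on simulated data. Correlations used 100000 permutations.

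Library values are given for genes at an adjusted or unadjusted p under 0.05 in any comparison and for the most abundant gene of each role. Of each list, called genes and the most abundant gene are named. Results of some genes under these rules are not reported here. The genes and lists were chosen with earlier results of these data known, and the annotated GABAergic synapse pathway was added after the values were seen. Of 11 listed GABA-B partners 8 were in the table.

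Promoter sequences are from RefSeq (GRCr8), where 23 of 33 genes were matched by symbol. Among those not matched were Dlx2, Gabra2, Dlx6, Abat, Calb2, Dlx5 and Calb1. Alternatives were no filter, a mean FPKM of at least 1, median-of-ratios scaling, DESeq2 1.42.0, only the 6 libraries compared, a block for the replicate number, limma 3.58.1 on log2(FPKM + 0.1) and log2(FPKM + 1), counts divided by 4, and leaving out each library. The counts were divided because a fragment may add several to an estimated count.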

Additional observations from a re-analysis of the deposited data

How the results depend on the processing

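Calls among the 33 genes depended on the setting. The alternatives gave 306 values for the 17 gene and comparison pairs at an unadjusted p under 0.05. Of these values, 278 kept their side of the threshold, 16 moved past it, 12 lost the call and none changed sign. These pairs were chosen by their p in the same data, so a change of sign was unlikely. The signs of the other pairs were not compared. All 12 lost calls were of Nlgn2 in ACS against control, which missed the threshold without a filter (adjusted p = 0.0578), with the 6 libraries alone (0.0672), with the replicate block (0.0727) and with limma on FPKM (0.0655 and 0.0643 for pseudocounts of 0.1 and 1), and in 7 fits that left out 1 library. In ACS against control, limma on log2(FPKM + 0.1) and on log2(FPKM + 1) each called 1 of the 33, Dlx2 (3.4% and 3.35% of all genes). Of the 33 genes, ACS against control called 0 without a filter (2.49% of all genes) and with the 6 libraries alone (3.03%), 2 (Dlx2 and Nlgn2) with a mean FPKM of at least 1 (6.19%) and with counts divided by 4 (5.51%), and 5 (Dlx1, Dlx2, Gabbr1, Nlgn2 and Npy) with DESeq2 (10.1%). With 1 library left out it called 0 to 5, the 5 (among them Dlx2, Gabbr1, Nlgn2 and Npy) without control 3 (8.64% of all genes), and ACS against DCS called 0 to 1. DESeq2 called 2 (Gabbr1 and Nlgn2) in ACS against DCS.

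The number of all genes called moved as well. In ACS against control it was 678, with 1652 by DESeq2 and 138 to 1431 with 1 library left out. In DCS against control it was 2, with 38 by DESeq2, 1 with the 6 libraries alone, the replicate block, limma on log2(FPKM + 1) or counts divided by 4, and 1 to 47 with 1 library left out. In ACS against DCS it was 103, with 650 by DESeq2, 59 with the replicate block, 65 and 64 with limma on log2(FPKM + 0.1) and log2(FPKM + 1), and 27 to 184 with 1 library left out. In ACS against control DESeq2 called 10.1% of all genes and edgeR 4.16%. Among the lists, DESeq2 called 4 of 23 scaffold genes (2 with edgeR), 2 of 16 lineage transcription factors (1) and 10 of 57 genes of the annotated pathway (3). Of the markers it called 3 of 10 excitatory and 3 of 10 pan-neuronal (1 each), 4 of 8 progenitor (3), 2 of 8 microglial (1) and 1 of 5 endothelial and fibroblast (0). Named genes of the lists lost calls as well. In ACS against control these were Grik1, Vim and Cacna1a without a filter, Iqsec3, Grik1, Gfap, Mki67 and Vim with the 6 libraries alone, Iqsec3, Gfap, Mki67 and Cacna1a with the replicate block, and Iqsec3, Mki67, Vim and Cacna1a with limma at both pseudocounts, joined by Grik1 at 0.1. In ACS against DCS, Grik1 and Rbfox3 were lost without a filter, and Cacna1d and Rbfox3 with the 6 libraries alone. Grik1, Cacna1d and Rbfox3 were lost with the replicate block and with limma at both pseudocounts, and Hes5 with the replicate block. The highest counts of all genes called with 1 library left out came without control 3 in each comparison, and the cause was not tested. With 1 library left out, ACS against control held 6 to 13 of the 33 genes at an unadjusted p under 0.05. The 6 came without ACS 2 (16.2% of all genes) and the 13 without control 3 (25.3% of all genes). DCS against control held 0 to 6 of the 33, while the share of all genes ran from 3.66% to 17.1%. The 6 came without control 3, where the share was 17.1%.

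Libraries with the same replicate number did not deviate together (r of -0.05 to 0.06 over 9 pairs, below the 0.1 set for pairing), and 9 of 18 best matches were to the same number. With the number as a block, ACS against control called 475 genes, and 1 of the 33, which was Calb2 (adjusted p = 0.0357) in place of Nlgn2. Gad1 correlations on log2(FPKM + 0.1) gave no adjusted p under 0.621. Shares of subunits by counts per kilobase could not be run, since no exon length was used here. Depth limits Pvalb, Gabrd and Gabrr2 most, whose intervals reach beyond 2-fold in at least 1 comparison.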
